A study of Homo sapiens with 8 samples.

Results

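The genes described here encode the epidermal growth factor (EGF) family of ligands and the ERBB receptors that bind them. They are 10 of the 58233 genes in the count table and were chosen by name as members of this family, with earlier results of these data known: 3 receptors (EGFR, ERBB2 and ERBB3) and 7 ligands (TGFA, AREG, EREG, HBEGF, BTC, EPGN and NRG1). Their mRNA was measured by RNA-seq in MCF10A-H-Ras cells, a human breast epithelial line that does not form tumours by itself and was transformed with the H-Ras oncogene. Control cells and RBM6-KO1 cells, a knockout of the RNA-binding protein RBM6, were either left untreated or collected 12 h after 5 Gy of ionizing radiation (IR), with 2 biological replicates (A and B) in each of the 4 groups and 8 libraries in all. RBM6-KO1 is 1 clone, made with a guide pair that directed a Cas9 nickase to an exon of RBM6, so the effect of the knockout and the history of that clone cannot be told apart. All 4 groups carried H-Ras and grew in medium with 20 ng/ml of added EGF, which is itself a ligand of EGFR. That medium also held horse serum, hydrocortisone, cholera toxin and insulin.

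EGF ligands are made as membrane-anchored precursors, and metalloproteases such as ADAM17 cut them free. A released ligand brings ERBB receptors together in pairs, and the paired receptors phosphorylate each other and switch on Ras, the ERK kinases and the PI3-kinase pathway. EGFR binds most of the ligands listed, ERBB2 has no known ligand of its own and acts as a partner, and ERBB3 has very weak kinase activity and signals by recruiting PI3-kinase when NRG1 or another neuregulin is bound. Many breast epithelial cells in culture depend on EGFR signalling for growth, and whether these H-Ras transformed cells do was not tested. AREG is best known as the ligand that drives growth of the mammary ducts.

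EPGN, EREG, AREG and BTC lie side by side on chromosome 4 (GRCh38, chr4:74308470-74794523), within 486.1 kb, and 1 of the 4 (BTC, in RBM6-KO1 cells) passed the test for IR. To set these neighbours side by side, the 80 bases before the start of each are shown, with those of HBEGF (chromosome 5), the ligand that was called lower after IR in control cells. The stretches lie at chr4:74308390-74308469 (EPGN, plus strand), chr4:74365065-74365144 (EREG, plus strand), chr4:74445056-74445135 (AREG, plus strand), chr4:74794524-74794603 (BTC, minus strand) and chr5:140346604-140346683 (HBEGF, minus strand). The sequences are from RefSeq (GRCh38.p14), 5′ to 3′ on the strand of the gene, and capitals mark exact matches to the TATA box letters TATAAA or to the cyclic AMP response element letters TGACGTCA.
EPGN: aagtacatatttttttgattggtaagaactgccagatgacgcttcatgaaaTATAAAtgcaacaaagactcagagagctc
EREG: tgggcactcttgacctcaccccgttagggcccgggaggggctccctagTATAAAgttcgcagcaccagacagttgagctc
AREG: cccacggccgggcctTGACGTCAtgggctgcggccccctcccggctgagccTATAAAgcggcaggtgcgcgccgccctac
BTC: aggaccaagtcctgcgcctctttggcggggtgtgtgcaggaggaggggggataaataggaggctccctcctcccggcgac
HBEGF: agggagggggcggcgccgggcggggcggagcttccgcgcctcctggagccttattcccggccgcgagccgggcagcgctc

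TATAAA began at base -29 of EPGN, -32 of EREG and -29 of AREG, counted back from the first transcribed base. In the 35116 promoters of the RefSeq table, which reach from 250 bases before to 50 bases after each start, TATAAA was found on the strand of the gene in 7.33%, in a window from 40 to 15 bases before the start in 2.30%, and on either strand in 11.5%. TGACGTCA, which reads the same on both strands, began at base -65 of AREG and was found in 1.85% of all promoters over their full length. TGANTCA, the AP-1 letters, also reads the same on both strands. It was in none of the 5 stretches of 80 bases and in 7.71% of all promoters over their full length. The bases before EPGN were 35.0% GC and those before HBEGF 80.0%. Of the 10 genes, 8 had an entry in the promoter table.

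The libraries held between 15355281 and 29832009 counts on genes, so that the limit a count of 0 allows (3 counts) was 0.101 to 0.195 CPM (a count scaled to library size); such limits cover counting error only. RBM6 mRNA was 66.8 to 68.8 CPM in untreated control, 61.5 to 63.1 CPM in untreated RBM6-KO1, 48.9 to 54.4 CPM in control after IR and 33.9 to 43.97 CPM in RBM6-KO1 after IR, so counts over the whole gene do not check the deletion. The 10 breast epithelial markers summed to between 5175 and 6845 CPM, led by the basal keratins KRT5 (1056 to 1621 CPM) and KRT6A (954.6 to 1360 CPM). The 8 markers of immune, endothelial and stromal cells summed to between 9.90 and 16.8 CPM, with CD3E at 0 in all 8 libraries and PTPRC at no more than 2 counts. Within that sum, COL1A1 measured 5.05 to 14.4 CPM and PECAM1 1.1 to 6.3 CPM. In RBM6-KO1 against control, the log2 fold change of COL1A1 was -0.74 untreated and -1.17 after IR. That of PECAM1 was 1.16 and 1.56, and neither gene passed. Of these 8, PDGFRB was called higher after IR in control cells, at 0.0536 to 0.307 CPM untreated and 1.10 to 1.70 CPM after IR. Its untreated control values rested on 1 and 5 counts, the lower of them under the limit of 3 counts. The part of PDGFRB in the IR results was not tested. Of the 4 luminal hormone receptor markers, the estrogen receptor gene ESR1 had at most 14 counts and the progesterone receptor gene PGR at most 1. GATA3 (11.35 to 17.5 CPM) and FOXA1 (2.15 to 5.08 CPM) were measured in all libraries. Between genotypes the log2 fold change of FOXA1 in RBM6-KO1 cells was -0.75 untreated and -1.10 after IR. That of GATA3 was -0.16 and -0.25, and none of these passed. All levels below are CPM normalized by the TMM method over the 8 libraries, and in bulk RNA fewer cells that make an mRNA and less mRNA per cell cannot be told apart.

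Per kb of merged exon, AREG was far above the other ligands and receptors. In untreated control cells it measured 1841 ± 111.5 CPM per kb (SD, n = 2), followed by EREG at 25.2 ± 2.99, TGFA at 13.5 ± 0.71 and EGFR at 9.49 ± 0.0085. ERBB2 (9.41 ± 0.38) and EPGN (8.96 ± 0.91) came next, and the values of EGFR, ERBB2 and EPGN overlapped between neighbours. HBEGF (6.68 ± 1.33), BTC (2.02 ± 1.03), ERBB3 (0.827 ± 0.267) and NRG1 (0.0792 ± 0.0056) followed without overlap. Dividing by the longest transcript instead moved ERBB2 to rank 3, TGFA to rank 4 and EGFR to rank 5 and left the other ranks as they were. AREG held between 91.9% and 97.4% of the summed ligand level per kb in the 8 libraries. Of the receptors, EGFR per kb was 1.04 and 0.981 times ERBB2 in untreated control, 1.22 and 2.30 times in control after IR, 1.70 and 1.06 times in untreated RBM6-KO1 and 1.55 and 2.68 times in RBM6-KO1 after IR. By the longest transcript, EGFR (15.3 CPM per kb) lay below ERBB2 (19.7) in untreated control. The RNA of NRG1, the ERBB3 ligand, rested on 27 to 105 counts per library.

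**Figure D1:**
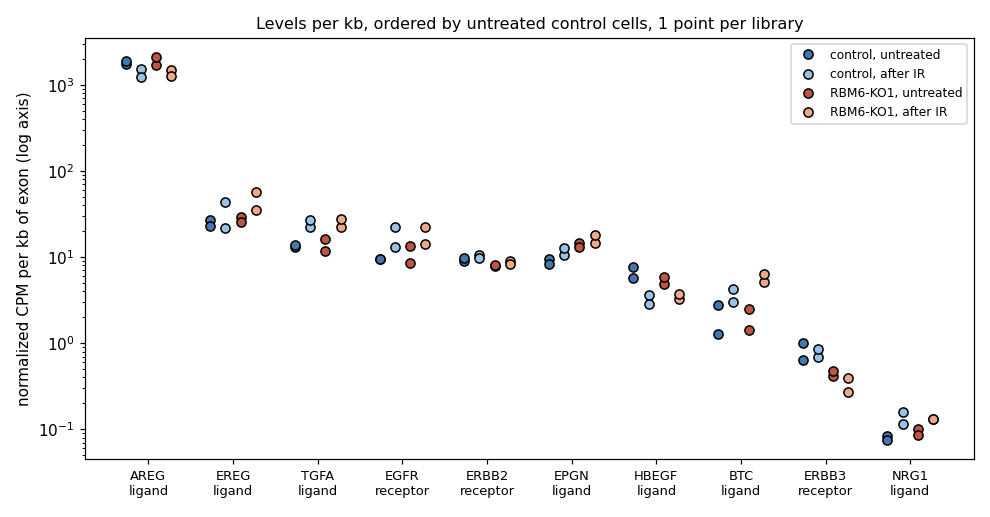
Level of each gene in normalized CPM per kb of merged exon (log axis), with genes in the order of their means in untreated control cells and 1 point per library, coloured by group. AREG lies near 1841 CPM per kb in untreated control cells, EREG at 25.2 and NRG1 at 0.0792.

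The design asks what loss of RBM6 changed, untreated and after IR, and what IR changed in each genotype. Each comparison was fitted over all expressed genes with edgeR's quasi-likelihood test on 2 libraries against 2. A gene passed at a Benjamini-Hochberg adjusted p under 0.05 and was called when it also differed at least 2-fold. By genotype without IR, 1 of the 10 genes passed (EPGN), where 6.12% of all 15556 genes tested passed, and none was called, where 3.12% of all were. After IR, none of the 10 passed between RBM6-KO1 and control cells, where 1.21% of all 15587 genes passed and 1.17% were called. At an unadjusted p under 0.05 there were 2 of the 10 by genotype without IR (18.4% of all genes tested) and 3 after IR (ERBB3, BTC and EPGN, where 11.1% of all were). For IR there were 6 of the 10 in control cells (25.4% of all) and 6 in RBM6-KO1 cells (29.6% of all). In control cells, 3 of the 10 passed for IR (EGFR, TGFA and HBEGF), where 5.72% of all 15412 genes passed, and 1 was called (HBEGF), where 3.59% were. In RBM6-KO1 cells, 2 of the 10 passed for IR (TGFA and BTC), where 5.67% of all 15598 genes passed, and 1 was called (BTC), where 3.11% were. The median log2 fold change of the 10 genes was 0.37 for IR in control cells and 0.35 in RBM6-KO1 cells, beside 0.02 and -0.01 over all genes tested. For RBM6 loss it was 0.04 untreated and 0.02 after IR, beside 0.01 and 0.02 over all genes. The labels call the replicates biological without naming separate cultures, so these p-values measure the spread between these libraries, and the comparisons share libraries with each other.

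**Figure D2:**
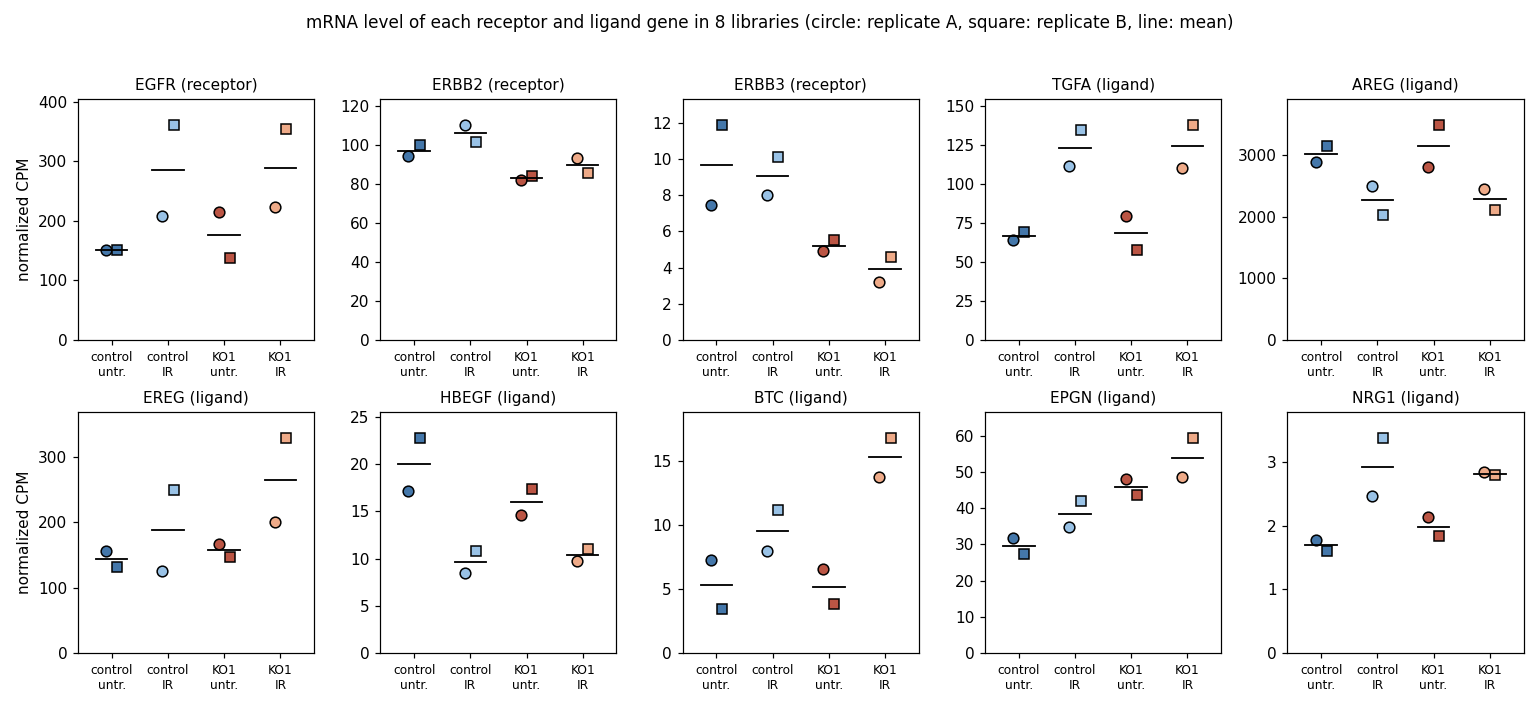
Normalized CPM of each gene in the 8 libraries, with each vertical axis starting at 0; circles are replicate A, squares replicate B and lines the group means. ERBB3 lies lower in the 4 RBM6-KO1 libraries (3.20 to 5.50 CPM) than in the 4 control libraries (7.48 to 11.9 CPM), and HBEGF lies lower in the 4 libraries after IR (8.47 to 11.1 CPM) than in the 4 untreated ones (14.6 to 22.8 CPM).

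Among the receptors, ERBB3 differed most with genotype. ERBB3 measured 7.48 and 11.9 CPM in untreated control and 8.02 and 10.1 CPM in control after IR. In RBM6-KO1 cells it measured 4.89 and 5.50 CPM untreated and 3.20 and 4.60 CPM after IR. All 4 RBM6-KO1 libraries lay below all 4 control libraries, on 62 to 94 counts in RBM6-KO1 and 122 to 314 in control. The log2 fold change was -0.92 (SE 0.27) untreated, with an adjusted p of 0.0505 by edgeR's quasi-likelihood test, and -1.22 (SE 0.28) after IR, with an adjusted p of 0.113, so neither passed. Of 8 other settings that kept all libraries, 5 took the adjusted p under 0.05 untreated and 5 after IR, and the log2 fold change stayed between -0.92 and -0.80 untreated and between -1.22 and -1.07 after IR. With DESeq2 the adjusted p was 0.0869 untreated and 0.0235 after IR. Without replicate B of untreated control the untreated value was -0.53, and without replicate A of RBM6-KO1 after IR the value after IR was -0.98. IR itself gave ERBB3 log2 fold changes of -0.10 (SE 0.28) in control and -0.43 (SE 0.28) in RBM6-KO1 cells, and neither passed. The level of ERBB2 was 9.53 to 15.6 times that of ERBB3 per kb in control libraries and 17.3 to 33.1 times in RBM6-KO1 libraries.

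EGFR, the receptor for most of these ligands, measured 151 CPM in both untreated control libraries and 208 and 362 CPM in control after IR. The 2 libraries after IR were both above the untreated ones but lay far apart. The rise was 1.87-fold (log2 fold change 0.91, SE 0.22, adjusted p 0.0392 by edgeR's quasi-likelihood test, Benjamini-Hochberg adjusted). With 1 library left out in turn the log2 fold change ran from 0.45, without replicate B of control after IR, to 1.26, without replicate A, and it passed in 1 of the 4 fits. With all 8 libraries in 1 fit the adjusted p was 0.0956 by edgeR. In RBM6-KO1 cells EGFR measured 215 and 138 CPM untreated and 224 and 355 CPM after IR. The log2 fold change there was 0.70 (SE 0.25) and did not pass (adjusted p 0.108 by the same edgeR test). The difference between RBM6-KO1 and control was 0.21 (SE 0.18) untreated and 0.02 (SE 0.31) after IR on the log2 scale, and the values of the genotypes overlapped in both states. The antisense gene EGFR-AS1, which overlaps EGFR, had 1 to 12 counts.

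ERBB2, the shared partner receptor, varied least of the 3 receptors. Its 8 libraries ran from 81.9 to 110 CPM, with RBM6-KO1 at 81.9 and 84.0 CPM untreated against 94.3 and 99.9 CPM in control. The log2 fold change was -0.24 (SE 0.14) untreated and -0.24 (SE 0.15) after IR. IR gave 0.12 (SE 0.16) in control and 0.09 (SE 0.15) in RBM6-KO1 cells, and none of the 4 passed. The groups did not overlap in any of these 4, so non-overlap of 2 libraries against 2 also went with small changes. How often groups do not overlap over all genes was not counted. ERBB2 overlaps MIEN1 (245 to 504 counts) and PGAP3 (157 to 237 counts) on the other strand, and whether the counting used strand is not given in the sources used here, so part of its 1236 to 3164 counts may come from those genes.

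Of the ligands that bind EGFR, TGFA rose after IR in both genotypes. It measured 63.9 and 68.8 CPM in untreated control and 112 and 135 CPM after IR, a 1.84-fold rise (log2 fold change 0.88, SE 0.17, adjusted p 0.0154 by edgeR's quasi-likelihood test, Benjamini-Hochberg adjusted). In RBM6-KO1 cells it measured 79.4 and 57.3 CPM untreated and 110 and 138 CPM after IR, a 1.79-fold rise (log2 fold change 0.84, SE 0.20, adjusted p 0.0432 by the same test). The libraries after IR did not overlap the untreated ones in either genotype. With 1 library left out in turn the log2 fold change stayed between 0.74 and 1.03 in control and between 0.63 and 1.11 in RBM6-KO1 cells, passing in 2 of 4 fits each. Between genotypes TGFA differed by 0.03 (SE 0.17) untreated and 0.01 (SE 0.18) after IR on the log2 scale.

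HBEGF, which also binds heparan sulfate and ERBB4, fell after IR in control cells. It measured 17.2 and 22.8 CPM in untreated control and 8.47 and 10.8 CPM after IR, on 131 to 425 counts. The fall was 2.07-fold (log2 fold change -1.05, SE 0.25, adjusted p 0.0331 by edgeR's quasi-likelihood test, Benjamini-Hochberg adjusted), and the groups did not overlap. Without replicate B of untreated control the log2 fold change was -0.83 and the adjusted p 0.296. In RBM6-KO1 cells HBEGF measured 14.6 and 17.4 CPM untreated and 9.79 and 11.1 CPM after IR. The libraries did not overlap, with a log2 fold change of -0.63 (SE 0.20) that did not pass (adjusted p 0.0818 by the same edgeR test).

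BTC (betacellulin), which binds both EGFR and ERBB4, rose most of the 10 genes, in RBM6-KO1 cells. There it measured 6.58 and 3.80 CPM untreated and 13.8 and 16.8 CPM after IR, on 56 to 344 counts. Both libraries after IR were more than 2-fold above the higher untreated one. The rise was 2.89-fold (log2 fold change 1.53, SE 0.27, adjusted p 0.0211 by edgeR's quasi-likelihood test, Benjamini-Hochberg adjusted). The log2 fold change stayed between 1.21 and 2.01 with each library left out in turn, and it passed in all 4 fits. In control cells BTC measured 7.29 and 3.43 CPM untreated and 7.95 and 11.2 CPM after IR, and those groups did not overlap, with a log2 fold change of 0.84 (SE 0.34) that did not pass (adjusted p 0.156 by the same edgeR test). That value ran from 0.40 to 1.46 with each library left out and passed in 2 of those 4 fits and in 3 of 9 other settings. After IR the RBM6-KO1 libraries lay above the control ones (log2 fold change 0.67, SE 0.25, adjusted p 0.362 by edgeR), and that difference did not pass either. Untreated, the genotypes differed by -0.04 (SE 0.35) on the log2 scale.

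EPGN (epigen), a ligand of EGFR, was the 1 gene of the 10 that passed between untreated genotypes. It measured 31.7 and 27.4 CPM in control and 48.0 and 43.6 CPM in RBM6-KO1 cells, without overlap. It was 1.54-fold higher in RBM6-KO1 cells (log2 fold change 0.62, SE 0.17, adjusted p 0.0356 by edgeR's quasi-likelihood test, Benjamini-Hochberg adjusted), and the adjusted p was 0.0855 with all 8 libraries in 1 fit. With 1 library left out in turn the log2 fold change stayed between 0.53 and 0.72 and passed in 1 of the 4 fits, that without replicate B of untreated RBM6-KO1. After IR it measured 34.9 and 41.9 CPM in control and 48.5 and 59.4 CPM in RBM6-KO1 cells, again without overlap. That difference was 0.49 (SE 0.19) on the log2 scale and did not pass (adjusted p 0.399 by the same edgeR test). IR gave 0.37 (SE 0.20) in control and 0.22 (SE 0.17) in RBM6-KO1 cells.

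EREG (epiregulin), which binds EGFR and ERBB4, was the ligand whose replicates after IR lay farthest apart. In control cells it measured 156 and 132 CPM untreated and 125 and 249.8 CPM after IR, so that one irradiated library lay below both untreated ones and the other above them. In RBM6-KO1 cells it measured 167 and 147 CPM untreated and 200.3 and 329 CPM after IR, without overlap. The log2 fold change was 0.37 (SE 0.26) in control and 0.74 (SE 0.22) in RBM6-KO1 cells, with adjusted p of 0.380 and 0.0699 by edgeR's quasi-likelihood test, and neither passed. Between genotypes it was 0.11 (SE 0.15) untreated and 0.50 (SE 0.35) after IR. With each library left out in turn, the difference between genotypes after IR ran from 0.08 to 1.08 on the log2 scale. The highest value was that without replicate B of control after IR.

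AREG (amphiregulin), the most abundant of the ligands, lay lower after IR in each genotype without passing the test. It measured 2893 and 3152 CPM in untreated control and 2502 and 2026 CPM after IR. In RBM6-KO1 cells it measured 2815 and 3493 CPM untreated and 2454 and 2113 CPM after IR. The groups did not overlap in either genotype, with log2 fold changes of -0.43 (SE 0.18, adjusted p 0.178 by edgeR) and -0.48 (SE 0.16, adjusted p 0.0916 by edgeR). The genotypes differed by 0.05 (SE 0.15) untreated and 0.02 (SE 0.17) after IR. NRG1, the neuregulin that binds ERBB3 and ERBB4, measured 1.78 and 1.61 CPM in untreated control and 2.46 and 3.38 CPM after IR. In RBM6-KO1 cells NRG1 measured 2.14 and 1.83 CPM untreated and 2.84 and 2.79 CPM after IR. Its log2 fold change for IR was 0.80 (SE 0.34) in control and 0.48 (SE 0.32) in RBM6-KO1 cells, and neither passed.

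**Figure D3:**
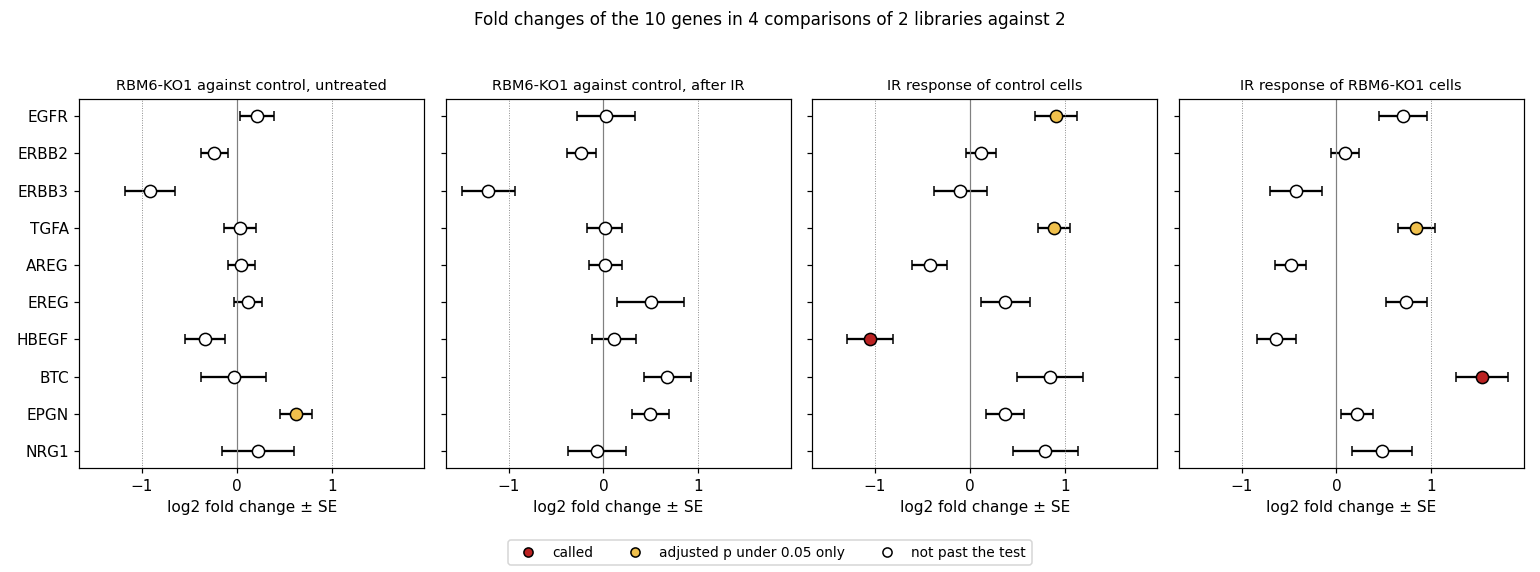
Log2 fold change of each gene with its standard error in the 4 comparisons of 2 libraries against 2; red points were called, yellow points had an adjusted p under 0.05 only, white points did not pass, and dotted lines mark a 2-fold change. HBEGF lies at -1.05 in control cells, BTC at 1.53 in RBM6-KO1 cells, and ERBB3 at -0.92 and -1.22 in the comparisons of genotypes.

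Whether the IR response differed between the genotypes was tested as an interaction over all 8 libraries. By edgeR's quasi-likelihood test 0 of 16549 genes passed (0%), 306 had an unadjusted p under 0.05, and DESeq2 passed 0 genes. None of the 10 was among the 306. BTC had the largest difference of the 10, 0.69 (SE 0.50) on the log2 scale in the direction of a larger rise in RBM6-KO1 cells, followed by HBEGF at 0.43 (SE 0.31). The differences of EREG (0.37, SE 0.42), ERBB3 (-0.32, SE 0.40), NRG1 (-0.31, SE 0.42) and EGFR (-0.20, SE 0.41) were within their standard errors, as were those of EPGN (-0.14, SE 0.24), AREG (-0.05, SE 0.23), TGFA (-0.04, SE 0.26) and ERBB2 (-0.02, SE 0.18). The call of HBEGF in control cells alone and of BTC in RBM6-KO1 cells alone is therefore not a shown difference between the genotypes, and these errors do not show that the genotypes responded alike.

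In the chromosome 4 cluster the gaps are 48.4 kb from EPGN to EREG, 56.4 kb from EREG to AREG and 289.8 kb from AREG to BTC, which lies on the opposite strand. After IR the neighbours had log2 fold changes of both signs. In RBM6-KO1 cells, from EPGN to BTC in map order, they were 0.22, 0.74, -0.48 and 1.53, and in control cells 0.37, 0.37, -0.43 and 0.84. AREG per kb was 64.5 and 83.1 times EREG in untreated control and 69.4 and 28.2 times after IR. In RBM6-KO1 cells it was 58.8 and 82.7 times EREG untreated and 42.6 and 22.4 times after IR. The share of AREG in the summed ligand level was 96.8% and 97.2% in untreated control, 96.1% and 93.1% in control after IR, 96.2% and 97.4% in untreated RBM6-KO1 and 94.9% and 91.9% in RBM6-KO1 after IR. EPGN, EREG and AREG all carry the TATAAA letters printed above, and AREG alone of the 5 stretches carries TGACGTCA.

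The replicates of a group differed along GC content and transcript length, and the genes described here differed between replicates by unequal amounts. Over 16417 genes, the difference of replicate B from replicate A had a Spearman correlation with GC of 0.39 in untreated control and 0.15 in untreated RBM6-KO1, and of -0.38 in control and -0.23 in RBM6-KO1 after IR. With transcript length it was -0.19 and -0.25 untreated, and 0.42 and 0.37 after IR, in the same order. These are descriptions across genes, which are not independent. The longest transcript of EREG is 36.1% GC and that of EGFR is 9905 bases, beside medians of 47.8% and 3288 bases over expressed genes. After IR, replicate B exceeded replicate A by 0.99 and 0.71 for EREG and by 0.79 and 0.67 for EGFR on the log2 scale (control and RBM6-KO1). BTC (38.7% GC) was lower in replicate B of the untreated groups by 1.07 and 0.77. For EPGN, at a like GC (38.9%), replicate B minus replicate A in those groups was -0.21 and -0.14. NRG1, whose longest transcript is 12518 bases, had 0.44 in control and -0.02 in RBM6-KO1 after IR. The part of GC and length in the differences of these genes was not tested. With the GC and length trends of each library removed, the IR response of EGFR in control was 0.60 (adjusted p 0.0194 by edgeR), that of TGFA 0.70 and 0.68 (control and RBM6-KO1), that of HBEGF in control -1.01 and that of BTC in RBM6-KO1 1.50, and all of these passed. ERBB3 was -0.80 (adjusted p 0.0580 by edgeR) untreated and -1.07 (adjusted p 0.0303 by edgeR) after IR between genotypes under that removal. That removal took all genes passing for IR from 881 to 2113 in control and from 884 to 1815 in RBM6-KO1 cells. By genotype it took them from 952 to 1173 untreated and from 189 to 570 after IR. More genes passed over the whole table, so these passes are not particular to the genes described here. The part of GC and length in the remaining spread was not tested.

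**Figure D4:**
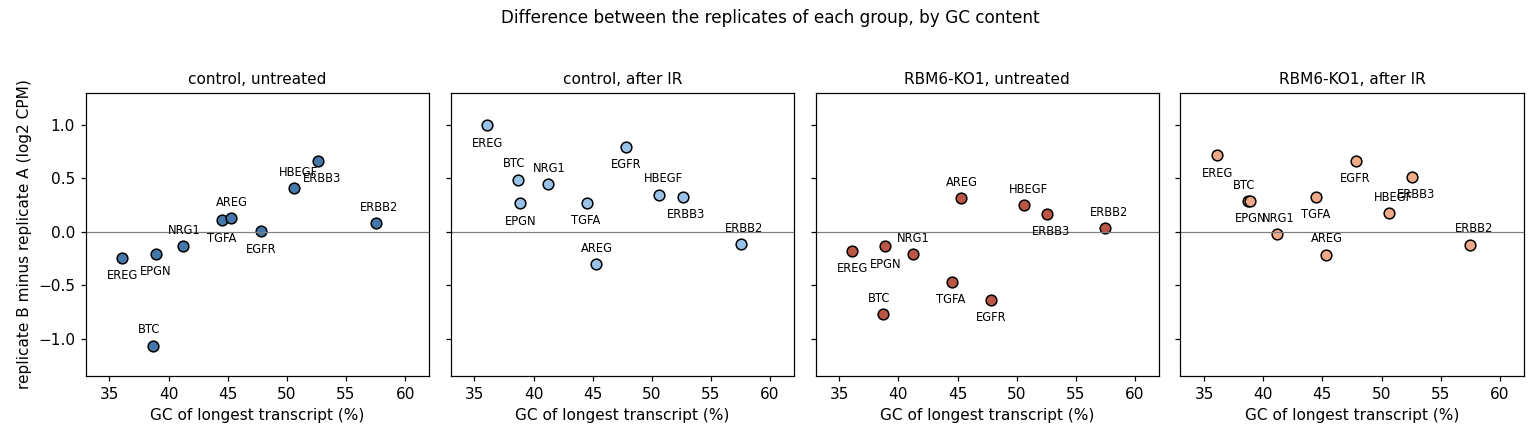
Replicate B minus replicate A in log2 CPM for each gene and group, against the GC percent of its longest transcript. EREG lies at 0.99 in control and 0.71 in RBM6-KO1 after IR, and BTC at -1.07 and -0.77 in the untreated groups.

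Around these genes, 76 genes of ligand release, receptor control and signalling were listed, of which 72 had enough counts in every comparison. Of the 5 further ligands and receptors, NRG2 (0.567 to 1.36 CPM) and NRG4 (3.31 to 6.36 CPM) were measured and did not pass in any comparison. EGF had 2 to 14 counts per library, NRG3 at most 2 and ERBB4, the fourth receptor, at most 2, so these were not tested, and PIK3R2, at 0 to 5 counts, overlaps a readthrough gene and is uncertain. Between untreated genotypes 1 of 72 was higher in RBM6-KO1 (2.38% of all genes tested passed as higher) and 8 were lower (3.73% of all), and the median log2 fold change of the 72 was -0.08. PIK3R1, the regulatory subunit through which PI3-kinase docks on ERBB3, was called higher, at 99.7 and 112 CPM against 35.9 and 53.5 CPM in control (log2 fold change 1.23, SE 0.18). ADAM8, a metalloprotease, was called lower, at 3.49 and 4.21 CPM against 10.6 and 11.5 CPM (log2 fold change -1.54, SE 0.25). FOS, an early target of growth factor signalling, was called lower as well, at 15.1 and 16.6 CPM against 35.9 and 37.8 CPM (log2 fold change -1.23, SE 0.18).

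After IR, 1 of the 72 passed between genotypes, as lower, where 0.84% of all genes passed as lower and 0.372% as higher. This was ADAM8, at 2.15 and 2.27 CPM in RBM6-KO1 and 6.85 and 7.68 CPM in control (log2 fold change -1.71, SE 0.26). In control cells 3 of 72 rose after IR (ADAM17, SHC1 and FOS, where 2.81% of all genes rose) and 3 fell (FOSL1, IER2 and KLF6, where 2.91% of all fell), and none was called. In RBM6-KO1 cells 5 rose (ADAM9, ERRFI1, FOS, MYC and SHC1, where 2.44% of all genes rose) and 3 fell (again FOSL1, IER2 and KLF6, where 3.23% of all fell). FOS was called there, rising from 15.1 and 16.6 CPM to 34.0 and 40.6 CPM (log2 fold change 1.22, SE 0.18). ADAM17, the main sheddase of TGFA and AREG, had a log2 fold change for IR of 0.96 (SE 0.25) in control and 0.95 (SE 0.30) in RBM6-KO1 cells, where it did not pass. ERRFI1, an inhibitor of EGFR, had 0.93 (SE 0.22) in RBM6-KO1 cells and 0.46 (SE 0.24) in control, where it did not pass. Untreated, ERRFI1 was lower in RBM6-KO1 cells, at 36.2 to 47.8 CPM against 61.7 to 83.2 CPM (log2 fold change -0.80, SE 0.18). HRAS, whose protein is the oncogene of these cells, ran from 218 to 389.5 CPM over the 8 libraries, and it did not pass in any of the 4 comparisons or the interaction. The median of the 72 for IR was 0.21 in control and 0.24 in RBM6-KO1 cells. Of the 10 breast epithelial markers, 1 passed as lower and 1 as higher in untreated RBM6-KO1 cells. EPCAM was lower, at 6.58 to 7.47 CPM against 21.4 to 26.7 CPM, and KRT14 was higher, at 78.0 to 105 CPM against 42.4 to 62.9 CPM. After IR, EPCAM was again called lower in RBM6-KO1 cells (log2 fold change -1.82, SE 0.22). For IR, KRT14 passed as lower in control (-0.90, SE 0.22) and in RBM6-KO1 cells (-0.96, SE 0.18). CDH1 was called higher for IR in control cells (1.18, SE 0.23). Their relation to the receptor and ligand levels was not tested.

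For the 2 called genes, the genes with the most similar pattern over the 8 libraries are given as a description, without a test. Among 16539 other expressed genes, HBEGF was closest to PRR13P2 (Pearson r of log2 CPM 0.98), ZNF221 (0.96) and PAXIP1-DT (0.96). BTC was closest to UBE2A (0.99), PARP8 (0.99) and RBM18 (0.99). The 8 libraries share genotype, IR, depth and base composition differences, all of which enter these correlations.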

How the data were processed

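RNA-seq libraries were made by the study from total RNA with a TruSeq mRNA kit and sequenced as paired ends. The authors deposited 1 table of read counts per Ensembl gene (whole numbers, not normalized) for the 8 libraries. Per the labels, reads were aligned to hg38, and STAR and DESeq2 are named in the submitters' processing notes without versions. The counting tool, annotation version and strandedness are not given in the sources used here. Of 58233 gene IDs, 57392 matched GENCODE v44, which gave symbols, positions, exon lengths and GC. The fits used edgeR 4.0.16 (filterByExpr, TMM, glmQLFit, glmQLFTest) and DESeq2 1.42.0 under R 4.3.3, each comparison on its own 4 libraries and the interaction on all 8. The standard error is the absolute log2 fold change divided by the square root of F. Log2 CPM used a prior count of 2. No column was left out. Scripts were tested on simulated counts.

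The 10 genes and the gene lists were chosen with earlier results of these data known. Named in the text are the 10 genes, the listed pathway genes that were called or too low to test, HRAS, and the 3 genes closest in pattern to each called gene; ADAM17, ADAM9, ERRFI1, MYC, SHC1, FOSL1, IER2, KLF6, NRG2, NRG4 and the markers were named after their values were seen. Alternatives were other normalizations, filters and tests, the replicate letter as a block, 1 fit of all 8 libraries and each library left out in turn. Removal of GC and length trends and a crossed block were added after seeing the data. Replicate letters were not shown to pair samples.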

Additional observations from a re-analysis of the deposited data

How the results depend on the processing

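Of the 10 genes, the number called by genotype without IR was 0 and was 1 (EPGN) on the adjusted p alone. After IR it was 0 and became 1, ERBB3 each time, with DESeq2 (1) and with no filter on low counts (1). Removing GC and length trends (1) and fitting all 8 libraries at once (1) did the same. Over the whole table the genes called by genotype after IR went from 182 to 319, 506, 350 and 340 in those settings, in that order. For IR in control cells the number of the 10 called was 1 and became 3 on the adjusted p alone. It was 0 with no filter, where HBEGF passed but stood just under 2-fold. For IR in RBM6-KO1 cells it was 1, and 2 on the adjusted p alone. With each library left out in turn these numbers ran from 0 to 1, 0 to 1, 0 to 4 and 1 to 4 in that order. The gain after IR without replicate B of control was EREG, and HBEGF was lost without replicate B of untreated control. Each fit with a library left out has 1 library in a group. The number of genes called over the whole table also rose and fell widely between those fits. The numbers of the 10 called there are therefore not particular to these genes. The interaction called 0 of the 10 in each setting run.

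The replicate letters were not shown to pair samples: deviations from the group means correlated at 0.08 untreated and 0.35 after IR between genotypes, and at -0.18 and -0.26 for IR. With the letter as a replicate block, 1 gene was called by genotype after IR (ERBB3, log2 fold change -1.21) and the numbers called in the other comparisons did not move. BTC (0.69), EPGN (0.50) and EREG (0.54) also passed by genotype after IR with the block, under 2-fold, where genes passing over the whole table went from 189 to 2416 and genes called from 182 to 541. Crossing the letters for IR called 965 genes in control and 1222 in RBM6-KO1 cells, beside 553 and 485.

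No value that passed turned direction, but values that did not pass turned, among them EREG for IR in control and in the interaction (0.37 each). With GC and length trends removed, AREG was -0.04 and EREG -0.08 by genotype untreated, TGFA -0.003 and AREG -0.04 after IR, and AREG 0.0006 in the interaction (log2). With each library left out, the genotype difference untreated ran from -0.16 to 0.50 for EGFR, -0.24 to 0.26 for TGFA, -0.10 to 0.18 for AREG and -0.51 to 0.60 for BTC. After IR it ran from -0.35 to 0.47 for EGFR, -0.16 to 0.16 for TGFA, -0.13 to 0.17 for AREG, -0.06 to 0.30 for HBEGF and -0.27 to 0.19 for NRG1. For IR in control cells ERBB3 ran from -0.41 to 0.28 and EREG from -0.21 to 0.80. The interaction ran from -0.58 to 0.28 for EGFR, -0.07 to 0.04 for ERBB2, -0.26 to 0.23 for TGFA, -0.19 to 0.11 for AREG, -0.05 to 0.98 for EREG and -0.30 to 0.03 for EPGN. The cause of these shifts was not tested. Of the 6 results of single genes that passed, 13 of 77 values under other settings were no longer under the adjusted p threshold, 11 of them with 1 library left out and 2 (EPGN by genotype untreated and EGFR for IR in control) with all 8 libraries in 1 fit. Of 573 values of results that did not pass, 41 came under it. With 2 libraries per group, ERBB3 (from 62 counts), BTC (from 56) and NRG1 (from 27) were limited most by depth.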
